A study of Mus musculus with 10 samples.

Results

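The insulin-like growth factor (IGF) family was followed in the uterus of HSD17B1TG and wild-type (WT) mice. The family was taken by gene name, as the ligands *Igf1* and *Igf2*, the receptors *Igf1r* and *Igf2r*, and the binding protein genes *Igfbp2* to *Igfbp7*. All 10 names were found among the 29268 genes listed, each on 1 row. Of the 10 genes, 9 passed the filter on low counts and were tested together with 16993 genes in all, and *Igf2* did not. RNA of the uterus was sequenced from 5 females of each genotype, aged 4 months, with 1 library per mouse. The mice are called here TG1 to TG5 and WT1 to WT5. The HSD17B1TG females carry, on the FVB/N background, a cDNA of human HSD17B1, the enzyme that converts estrone to the more potent estradiol, driven by the chicken beta-actin promoter with a cytomegalovirus enhancer in all tissues. The WT mice carry no transgene. The human transcript is not part of the mouse annotation, so it gives no check of the labels here.

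Some properties of the model bear on every value below. HSD17B1TG females do not cycle, whereas the WT females do, and no stage of the cycle is labelled for a mouse. Genotype and cycle therefore cannot be told apart. The libraries hold whole uterus, and fewer cells of a type cannot be told apart from less RNA per cell. Total counts on genes ranged from 14817228 to 23271988 per mouse. Markers of stroma, smooth muscle and epithelium were all abundant, and the 5 oviduct markers summed to 2.72 to 8.54 FPKM, the fragments of a gene scaled by its length and by the depth of the library.

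In the uterus, IGF1 is known as a growth factor made mostly by the stroma, induced by estradiol and acting on the neighbouring epithelium through the receptor tyrosine kinase IGF1R. IGF2 uses the same receptor, while IGF2R, the mannose 6-phosphate receptor, takes IGF2 up for degradation. The binding proteins hold the ligands outside the cell and by this limit, store or deliver them, and proteases such as PAPPA release the ligand by cutting them. IGFBP7 is a more distant relative with low affinity for IGFs, known from vessel walls and stroma.

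The promoters of the binding proteins that differed between genotypes, *Igfbp4* and *Igfbp7*, and of the main ligand, *Igf1*, are given so that the sequences before their RefSeq starts can be read beside their levels. RefSeq promoter windows of GRCm38.p6 were found for all 10 genes, 14 windows in total, and only the 250 bases before the start are printed. Windows of *Igfbp4* at chr11:99040994-99041243 (plus strand), of *Igfbp7* at chr5:77408046-77408295 (minus strand) and of *Igf1* at chr10:87860861-87861110 (plus strand) are shown 5′ to 3′. The *Igf1* window precedes a RefSeq start that lies inside the gene as listed (chr10:87858265-87937042), so it is not upstream of the whole gene. Capitals mark the motif matches on either strand.
Igfbp4: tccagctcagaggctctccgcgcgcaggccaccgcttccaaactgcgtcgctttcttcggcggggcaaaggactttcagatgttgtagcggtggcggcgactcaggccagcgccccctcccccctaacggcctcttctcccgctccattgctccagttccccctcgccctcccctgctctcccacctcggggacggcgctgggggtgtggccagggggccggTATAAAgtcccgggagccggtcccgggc
Igfbp7: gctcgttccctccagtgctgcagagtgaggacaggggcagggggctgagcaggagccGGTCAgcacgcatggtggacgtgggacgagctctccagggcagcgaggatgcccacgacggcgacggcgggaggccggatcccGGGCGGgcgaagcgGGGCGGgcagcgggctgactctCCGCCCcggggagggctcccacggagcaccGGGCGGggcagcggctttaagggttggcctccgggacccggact
Igf1: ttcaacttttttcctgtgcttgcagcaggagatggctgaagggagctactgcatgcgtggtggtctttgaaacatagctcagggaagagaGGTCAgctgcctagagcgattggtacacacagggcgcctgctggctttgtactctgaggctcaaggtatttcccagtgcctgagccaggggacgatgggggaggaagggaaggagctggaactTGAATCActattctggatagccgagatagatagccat

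Motifs were searched on both strands, with N standing for any base. They included the full estrogen response element (GGTCA and TGACC with 3 bases between them) and its half-site GGTCA. The progesterone response element was GNACA and TGTNC with 3 bases between them. The others were the AP-1-like pattern TGANTCA, the GC box GGGCGG, the TATA box TATAAA and the E-box CACGTG. A full element holds a half-site on each strand. The full estrogen element was in 0.0639% of 32851 windows of this length and in none of the 14 windows of the family, and the progesterone element was in 0.387% of all windows and also in none of the 14. In *Igfbp4*, the only match was a TATA box at -28 from the start, a motif found in 12.4% of all windows. In *Igfbp7*, the window held 4 GC boxes (32.7% of all windows hold at least 1) and a half-site at -193 (35.2% of all windows). The *Igf1* window held a half-site at -160 and a match to the AP-1-like pattern at -37, the latter found in 6.75% of all windows. The open base of this match was A (TGAATCA). The windows of *Igfbp4* and *Igfbp7* were richer in G and C, with 69.2% and 74%, than the *Igf1* window, with 52.8%, the median of all windows being 52.4%. These matches describe letters only.

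Transcripts of *Igfbp4* and *Igfbp7* were lower in HSD17B1TG than in WT, by 3.76-fold and 3.06-fold, and these were the 2 genes of the family that passed the test (edgeR quasi-likelihood, Benjamini-Hochberg adjusted p under 0.05 over all genes tested). Across all genes tested, 2.81% passed in the lower direction and 3.34% in the higher, against 2 and 0 of the 9 family members tested. With the study's further thresholds, a fold change above 2 and a group mean above 1 FPKM in at least 1 genotype, the same 2 genes were called, against 2.08% of all genes called lower and 2.16% called higher. Every HSD17B1TG mouse lay below every WT mouse for *Igfbp4* and *Igfbp7*, as for 2.65% of all genes. For no tested gene of the family did every HSD17B1TG mouse lie above every WT mouse, against 4.04% of all genes. At an unadjusted p under 0.05, 4 genes were lower (*Igfbp4*, *Igfbp7*, *Igfbp5* and *Igf1*) and 1 was higher (*Igf2r*), the background being 11.4% lower and 14.7% higher. The median log2 fold change over the 9 tested genes was -0.63, and over all genes it was 0.0021.

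**Figure D1:**
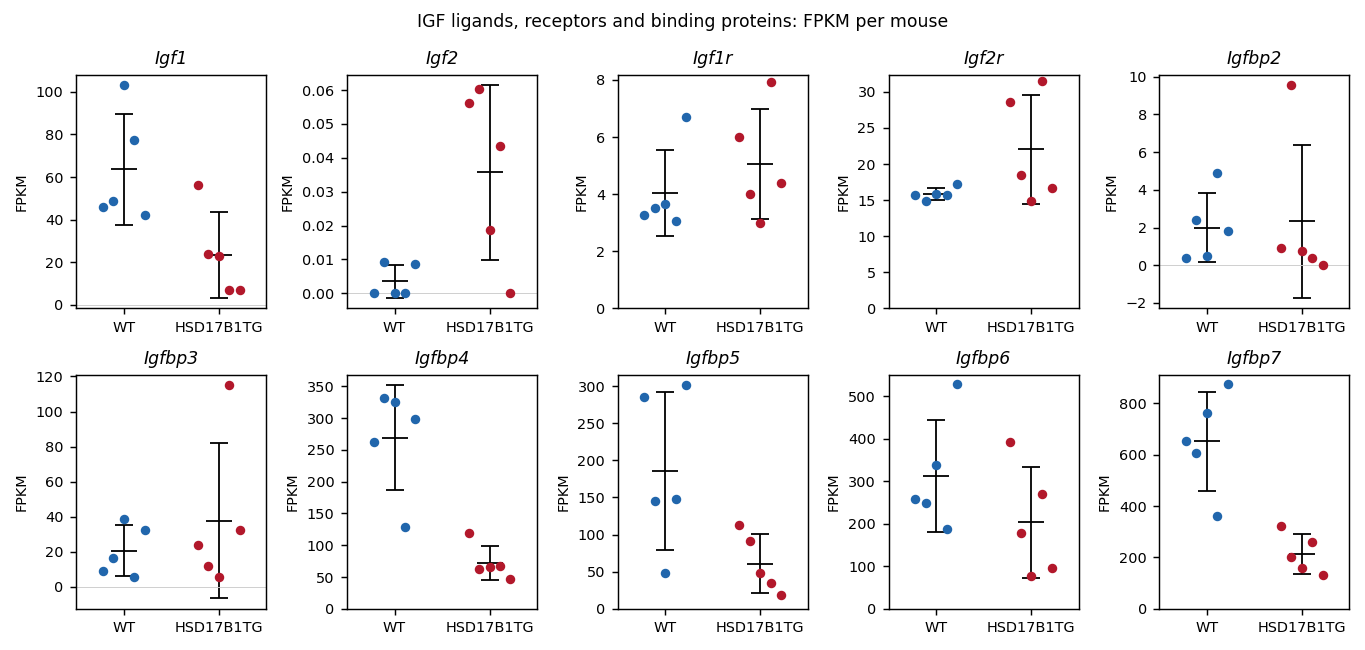
FPKM (vertical axes, linear, a separate scale per gene) of the 10 genes of the IGF family in 5 WT (blue) and 5 HSD17B1TG (red) mice, 1 point per mouse, with the mean (horizontal mark) and SD (bars). Only for Igfbp4 and Igfbp7 do all red points lie below all blue points, and TG1 is the highest red point for both and for Igf1.

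Of the ligands, *Igf1* was the one with appreciable transcript. Its FPKM were 56.5, 23.8, 23.1, 7.14 and 7.01 in TG1 to TG5, and 45.9, 48.9, 103, 77.6 and 42.3 in WT1 to WT5. TG1 lay within the range of WT, and the other 4 HSD17B1TG mice lay below every WT mouse. The log2 fold change was -1.44 (SE 0.55, 95% interval -2.66 to -0.23), with an edgeR adjusted p of 0.130, so *Igf1* did not pass the test. The two-sided exact permutation test of this gene alone gave p = 0.0317, where 0.00794 is the smallest p that the 252 assignments of 10 mice can give. Without TG1 the adjusted p of *Igf1* was 0.0276 and its log2 fold change was -2.06. With voom and quality weights in limma, which weigh down mice that deviate, it was -1.67 with an adjusted p of 0.0329. Within the HSD17B1TG group the highest *Igf1* level was 8.06 times the lowest, and within WT 2.44 times.

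*Igf2*, which encodes the fetal ligand, was close to absent. It had 6, 6, 2, 4 and 0 counts in TG1 to TG5, and 0, 1, 0, 0 and 1 counts in WT1 to WT5. Its FPKM did not exceed 0.0603 in any mouse. The groups held 18 and 2 counts in all, a ratio per total count of 9.30 with an exact 95% counting interval from 2.23 to 82.7, which covers counting error only. The two-sided exact permutation p was 0.0476, and 1 HSD17B1TG mouse had no count, like 3 of the WT mice. A count of 3 corresponds to 0.202 CPM (counts scaled by the library total) in the library with the lowest total, the level under which a gene could not be told from absent there.

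Both receptor genes were expressed in all mice, and neither passed the test. *Igf1r* had FPKM of 5.99, 4.02, 2.998, 7.92 and 4.40 in TG1 to TG5 and of 3.28, 3.52, 3.67, 3.07 and 6.70 in WT1 to WT5. The groups overlapped over most of their range, with 1 HSD17B1TG mouse above and 1 below all WT mice. Its log2 fold change was 0.32 (SE 0.29, 95% interval -0.33 to 0.97, edgeR adjusted p = 0.529). A change of this transcript beyond 1.95-fold higher or 1.26-fold lower thus lay outside the interval.

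*Igf2r* had FPKM of 28.5, 18.5, 14.8, 31.5 and 16.7 in TG1 to TG5 and of 15.8, 14.9, 15.8, 15.7 and 17.3 in WT1 to WT5. The coefficient of variation was 5.34% among the WT mice, the lowest of the family in that group, and 34.0% among the HSD17B1TG mice. TG1, TG2 and TG4 lay above every WT mouse, and TG3 lay below every WT mouse. The log2 fold change was 0.47 (SE 0.21, 95% interval 0.00092 to 0.93), with an edgeR adjusted p of 0.191. *Airn*, the noncoding RNA transcribed antisense from within *Igf2r*, averaged 6.46 FPKM in HSD17B1TG and 5.14 in WT (log2 fold change 0.33), and without the strand setting of the counting, reads of the shared region cannot be assigned to one or the other.

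Among the binding proteins, *Igfbp4* and *Igfbp7* fell. IGFBP4 is an inhibitory binding protein that binds both ligands and is cleaved by PAPPA. Its FPKM were 118.6, 61.8, 66.5, 67.0 and 46.9 in TG1 to TG5, and 262, 332, 326, 129 and 298.5 in WT1 to WT5. All HSD17B1TG mice lay below all WT mice, but TG1 came close to WT4, the lowest WT mouse. The mean was 72.2 ± 27.2 in HSD17B1TG and 270 ± 83.3 in WT (SD, n = 5 each), and the log2 fold change was -1.91 (SE 0.32, 95% interval -2.61 to -1.21, edgeR adjusted p = 0.0177). The two-sided exact permutation p was 0.00794, the smallest possible. *Igfbp4* (chr11:99041244-99054392, plus strand of GRCm38) overlaps no other annotated gene. With 1 mouse left out, its adjusted p stayed under 0.05 in 8 of 10 fits, and was 0.0522 without TG2 and 0.0509 without TG5.

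*Igfbp7* had FPKM of 322, 200, 157, 261 and 130 in TG1 to TG5, and of 653, 605, 764, 361 and 874 in WT1 to WT5. The order of the mice resembled that of *Igfbp4*, with TG1 highest among the transgenic mice and WT4 lowest among the WT mice. The means were 214 ± 78.1 and 651 ± 193, and the log2 fold change was -1.61 (SE 0.30, 95% interval -2.28 to -0.95, edgeR adjusted p = 0.0229, two-sided exact permutation p = 0.00794). Its call was lost in more of the fits with 1 mouse left out than that of *Igfbp4*. It passed in 4 of 10 fits with 1 mouse left out, and the adjusted p was 0.0625 without TG2, 0.0525 without TG4, 0.0543 without TG5, 0.0546 without WT2, 0.0528 without WT3 and 0.0576 without WT5. The log2 fold change stayed between -1.80 and -1.48 in the fits with 1 mouse left out. In each fit where *Igfbp7* did not pass, fewer genes of the whole table were called as well. *Igfbp7* (chr5:77349240-77408041, minus strand) overlaps the noncoding *Gm34648*, with at most 6 counts in a mouse, and *Polr2b*, which encodes a subunit of RNA polymerase II both on the other strand, the latter with means of 12.2 and 17.9 FPKM and up to 2252 counts in a mouse.

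**Figure D2:**
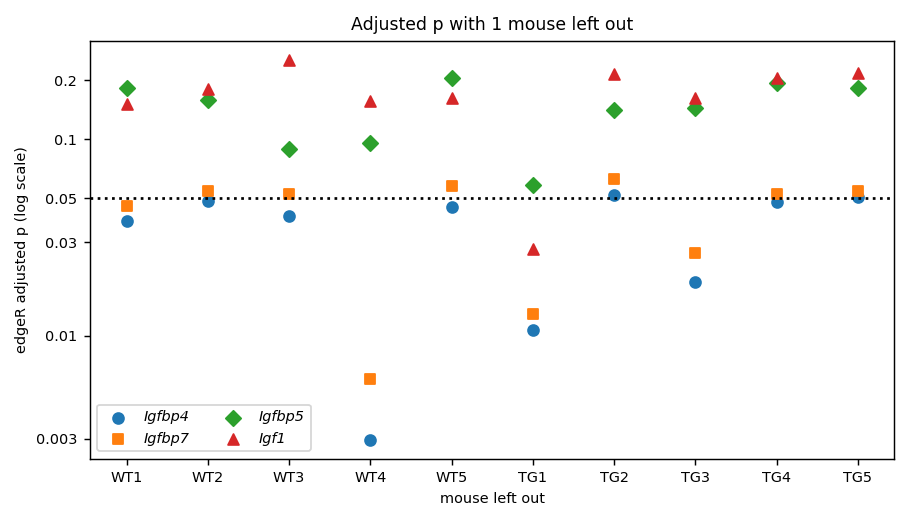
Benjamini-Hochberg adjusted p of edgeR (vertical axis, log scale) for Igfbp4, Igfbp7, Igfbp5 and Igf1 with each mouse left out in turn (horizontal axis), with a dotted line at 0.05. Igfbp4 and Igfbp7 lie near the line for most mice left out and are lowest without WT4, at 0.00297 and 0.00605, and Igf1 lies below the line only without TG1.

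*Igfbp5*, whose product binds to matrix and to hydroxyapatite, had a log2 fold change as large as that of *Igfbp7*, -1.61, but with a wider error. Its FPKM were 112.6, 91.7, 47.7, 34.3 and 18.4 in TG1 to TG5, and 285, 145, 48.4, 147 and 301 in WT1 to WT5. WT3 lay among the HSD17B1TG mice, and the other 4 WT mice lay above all of them. The SE was 0.57 (95% interval -2.86 to -0.36, edgeR adjusted p = 0.104, two-sided exact permutation p = 0.0397), so *Igfbp5* did not pass. In DESeq2, the test that the study used, its adjusted p was 0.0312. *Igfbp5* passed in 1 of 7 alternatives of tool, unit, normalization and filter. With 1 mouse left out it passed in 0 of 10 edgeR fits (adjusted p 0.0586 to 0.204).

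*Igfbp6* encodes a binding protein that prefers IGF2. Its FPKM were 392, 179.5, 77.5, 271 and 96.6 in TG1 to TG5, and 258.5, 249, 339, 187 and 528 in WT1 to WT5. The groups overlapped, although 3 HSD17B1TG mice lay below every WT mouse. Its log2 fold change was -0.63 (SE 0.45, 95% interval -1.61 to 0.36, edgeR adjusted p = 0.408).

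*Igfbp3*, the main carrier of IGFs in serum, had FPKM of 24.1, 12.1, 5.82, 114.9 and 32.2 in TG1 to TG5, and of 9.28, 16.5, 38.9, 5.46 and 32.5 in WT1 to WT5. A single mouse, TG4, lay far above all others. The log2 fold change of 0.88 (SE 0.77, edgeR adjusted p = 0.511) turned to -0.15 without TG4. *Igfbp2* was the least abundant binding protein, with FPKM of 0.900, 9.55, 0.777, 0.403 and 0 in TG1 to TG5 and of 0.396, 2.39, 0.504, 4.90 and 1.80 in WT1 to WT5. TG2 alone carried the HSD17B1TG mean. Its log2 fold change of 0.22 (SE 1.16, edgeR adjusted p = 0.924) turned to -1.93 without TG2, and was also negative without WT1 (-0.07) or without WT3 (-0.05).

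**Figure D3:**
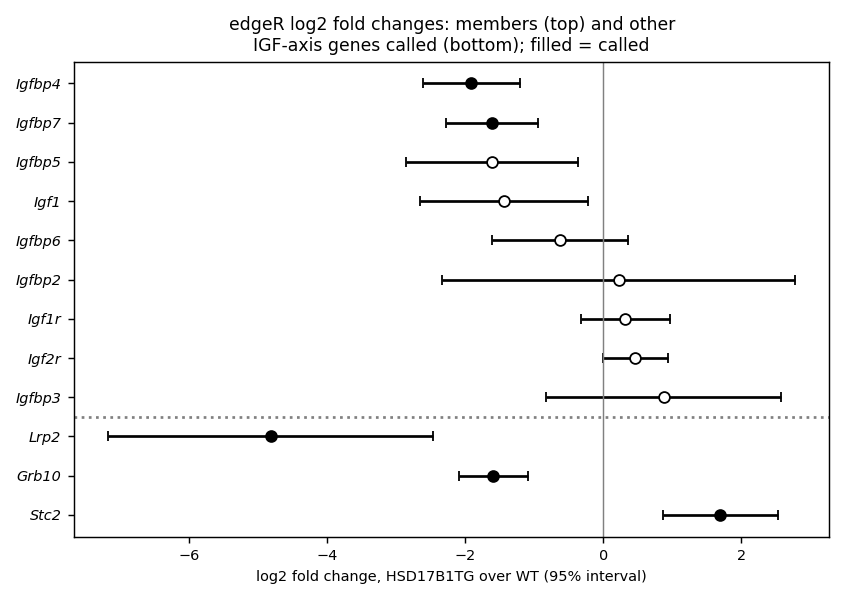
Log2 fold change of HSD17B1TG over WT (horizontal axis) in edgeR with its 95% interval for the 9 tested genes of the family (above the dotted line) and the 3 other genes of the IGF axis that were called (below it). Filled points were called, and among the family these are Igfbp4 and Igfbp7, while the intervals of Igfbp5 and Igf1 also lie below 0.

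Per length, the order of levels was similar in both genotypes. In WT the mean FPKM fell from *Igfbp7* (651) over *Igfbp6* (312), *Igfbp4* (270), *Igfbp5* (185), *Igf1* (63.6), *Igfbp3* (20.5), *Igf2r* (15.9) and *Igf1r* (4.05) to *Igfbp2* (1.999) and *Igf2*. In HSD17B1TG, *Igfbp7* (214) and *Igfbp6* (203) led, followed by *Igfbp4* (72.2), *Igfbp5* (60.9), *Igfbp3* (37.8), *Igf1* (23.5), *Igf2r* (22.03), *Igf1r* (5.07) and *Igfbp2* (2.33). *Igfbp7* exceeded *Igfbp6* in 5 of 5 WT mice and in 3 of 5 HSD17B1TG mice. In WT, *Igfbp6*, *Igfbp4* and *Igfbp5* were not separated from each other, with *Igfbp6* above *Igfbp4* in 3 of 5 mice and *Igfbp4* above *Igfbp5* in 2 of 5. *Igf1* exceeded *Igfbp3* in 5 of 5 WT mice without overlap of the ranges, whereas in HSD17B1TG *Igfbp3* and *Igf1* changed places from mouse to mouse. *Igf2r* lay above *Igf1r* in all 10 mice. With 5 mice, the smallest two-sided exact p of such a paired comparison is 0.0625.

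Summed over the 6 binding proteins, FPKM came to 591 ± 272 in HSD17B1TG (324 to 971) and 1441 ± 429 in WT (835 to 2036; SD, n = 5 each). The ranges met only through TG1, with 971, and WT4, with 835. *Igfbp6* made up 32.1% ± 7.01 of this sum in HSD17B1TG and 21.3% ± 3.37 in WT, while *Igfbp7* made up 37.7% ± 4.44 and 45.2% ± 3.01, and *Igfbp4* 13.1% ± 3.71 and 18.8% ± 4.18. *Igfbp3* reached 15.4% of the sum in TG4 and 9.94% in TG5, and was at most 2.49% in the other HSD17B1TG mice and 2.57% in WT. The level of *Igf1* relative to *Igf1r* was 5.11 ± 3.75 in HSD17B1TG and 17.5 ± 8.97 in WT. The binding protein sum relative to *Igf1* was 41.3 ± 37.5 in HSD17B1TG and 26.6 ± 14.9 in WT, but the medians ran the other way, 23.3 and 27.6. TG4, at 104.7, carried the HSD17B1TG mean, and the other HSD17B1TG mice had 17.2, 23.3, 15.4 and 46.2, within the WT range of 10.8 to 48.1. These sums and ratios are given as descriptions.

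**Figure D4:**
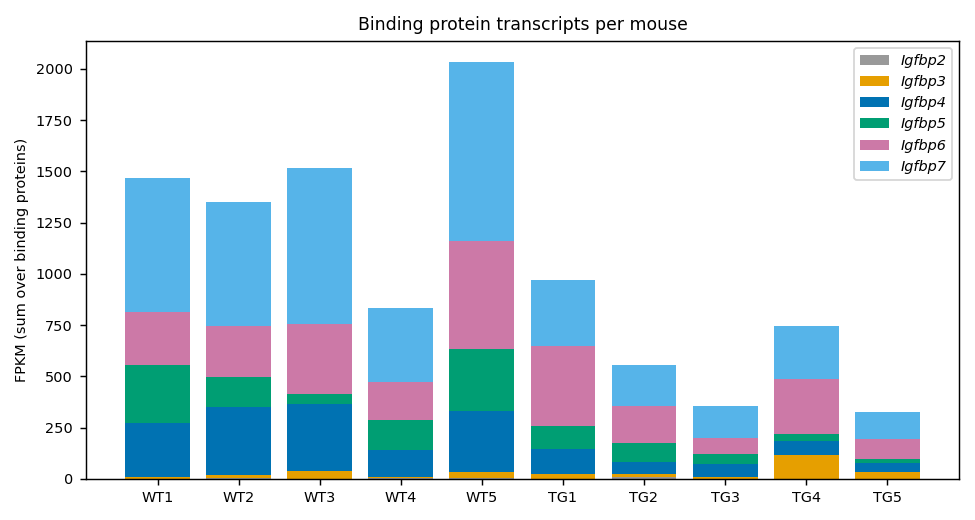
FPKM of the 6 binding protein genes stacked per mouse (vertical axis, from 0), WT1 to WT5 on the left and TG1 to TG5 on the right, 1 colour per gene. The sums span 324 to 971 in HSD17B1TG and 835 to 2036 in WT, and Igfbp3 takes its largest shares in TG4 (15.4%) and TG5 (9.94%).

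The genes varied together to different degrees within the groups. On deviations from the group means over the 10 mice (log2 CPM, so that all genes share the library of a mouse), Pearson's r was 0.91 between *Igfbp6* and *Igfbp7*, 0.87 between *Igfbp4* and *Igfbp7*, 0.86 between *Igf2r* and *Igfbp6*, 0.84 between *Igf1r* and *Igfbp6*, 0.83 between *Igf1r* and *Igfbp3* and 0.81 between *Igf1r* and *Igf2r*. *Igf1* had no r above 0.47 with any other tested gene of the family. By the same measure, the protein-coding genes most like *Igfbp4* were *Dock10* (r 0.96), *Fance* (0.96) and *Igdcc4* (0.96). The log2 fold change of *Igdcc4* was -1.89 (edgeR adjusted p = 0.0260), while *Dock10* (-0.91) and *Fance* (-0.29) did not pass. Those most like *Igfbp7* were *Adamts10* (r 0.98), *Robo4* (0.98) and *Srcin1* (0.97), and those most like *Igf1* were *Ly6h* (0.93), *St8sia6* (0.93) and *Rab42* (0.91). None of the genes most like *Igfbp7* or *Igf1* passed in edgeR. *Dock10*, *Srcin1* and *St8sia6* averaged under 1 FPKM in both genotypes. These r are the highest among the protein-coding genes tested, over 10 mice, and are given with no test.

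The other genes of the IGF axis were taken from a list of 27 genes. It holds the insulin genes, further binding proteins and *Igfals*, binding protein proteases and their inhibitors, insulin receptors, receptor substrates, adaptors, IGF2 mRNA-binding proteins, uptake receptors, integrin subunits and the noncoding RNAs *H19* and *Airn*. Of these, 25 were listed and 18 tested. Of the 18, 1 rose and 2 fell past the thresholds, where 2.16% of all genes were called higher and 2.08% lower, and the median log2 fold change of the 18 was -0.39. *Stc2*, encoding a secreted glycoprotein that inhibits PAPPA, had FPKM of 17.2, 29.2, 20.1, 13.03 and 33.2 in TG1 to TG5, and of 8.02, 6.23, 2.70, 12.1 and 5.76 in WT1 to WT5. All HSD17B1TG mice lay above all WT mice, the closest pair being TG4 and WT4, and *Stc2* rose by a log2 fold change of 1.70 (SE 0.38, edgeR adjusted p = 0.0337). *Pappa* itself stood at 1.00 ± 0.799 and 1.27 ± 1.12 FPKM and did not pass.

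*Grb10*, an imprinted gene whose adaptor protein binds and dampens the IGF1 and insulin receptors, had FPKM of 8.69, 6.20, 6.84, 8.71 and 6.62 in TG1 to TG5, and of 21.4, 21.3, 32.7, 13.1 and 22.7 in WT1 to WT5. No HSD17B1TG mouse reached the lowest WT mouse, and the log2 fold change was -1.59 (SE 0.23, edgeR adjusted p = 0.0153). *Grb10* kept its call in 10 of 10 fits with 1 mouse left out (adjusted p up to 0.0450), whereas *Stc2* and *Lrp2* each kept theirs in 3 of 10, without TG1, TG3 or WT4, with adjusted p up to 0.0859 and 0.0851. *Lrp2*, the endocytic receptor megalin, had FPKM from 0.0573 to 0.392 in HSD17B1TG and 4.13, 3.25, 21.7, 0.618 and 0.713 in WT1 to WT5. Its log2 fold change of -4.82 (SE 1.07, edgeR adjusted p = 0.0336) rested partly on WT3 and ranged from -5.14 to -3.35 with 1 mouse left out. *Igfbp1*, a binding protein known from liver and decidua, was listed at 0 in all HSD17B1TG mice and in 4 of 5 WT mice. *Igf1* overlaps *Igf1os* on the other strand, which had at most 31 counts in a mouse, and *Igf2* overlaps *Igf2os* on the other strand, which had at most 9. *Igf2* also overlaps the protein-coding *Gm49394* and the microRNA gene *Mir483* on its own strand, which were not analysed here.

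None of the genes that relay the signal inside the cell passed the test. Of 22 genes from the adaptors through PI3K and AKT to mTOR, all were tested and 0 passed in edgeR, 13 being numerically higher and 9 lower, with a median log2 fold change of 0.10. At an unadjusted p under 0.05, 2 were higher and 2 lower, where the shares of all genes were 14.7% and 11.4%. The smallest p belonged to *Mtor*, the growth-regulating kinase, with a log2 fold change of -0.37 (SE 0.12, edgeR adjusted p = 0.0756) and no overlap of the groups, followed by the adaptor *Grb2* with 0.33 (edgeR adjusted p = 0.128) and the kinase *Gsk3b* with 0.37 (edgeR adjusted p = 0.151).

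Of 14 proliferation genes, 0 passed in edgeR, and 0 had an unadjusted p under 0.05. The smallest p were those of *Ccna2*, encoding cyclin A2 (log2 fold change -0.81, edgeR adjusted p = 0.630), of *Pcna*, the sliding clamp of replication (-0.30, edgeR adjusted p = 0.633), and of *Ccnb2*, encoding cyclin B2 (-0.75, edgeR adjusted p = 0.664). Their summed FPKM were 44.5, 55.8, 429, 58.4 and 59.99 in TG1 to TG5, and 222, 197, 167, 200 and 81.1 in WT1 to WT5. TG3 lay above every other mouse and the remaining HSD17B1TG mice below every WT mouse. *Igf1* in TG3, 23.1, was the median of its group.

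The steroid receptor genes described here did not pass the test. The log2 fold change was -0.05 (SE 0.17, edgeR adjusted p = 0.889) for *Esr1*, the estrogen receptor of the uterus, -0.70 (SE 0.40, edgeR adjusted p = 0.298) for the progesterone receptor *Pgr* and -0.09 (SE 0.17, edgeR adjusted p = 0.790) for the glucocorticoid receptor *Nr3c1*. *Esr2* was too low to be tested.

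Markers of stroma, the uterine compartment known to make much of the IGF1 and several binding proteins, were in part lower in HSD17B1TG. Of 12 stromal markers, 6 fell past the thresholds (*Col3a1*, *Pdgfra*, *Thy1*, *Hoxa10*, *Hoxa11* and *Hand2*) and 0 rose, with a median log2 fold change of -1.41, where 2.08% of all genes were called lower. The abundant matrix proteoglycan genes *Dcn* (227 FPKM in HSD17B1TG and 242 in WT, log2 fold change -0.10) and *Lum* (267 and 187, log2 fold change 0.51) did not pass. The summed FPKM of all 12 stromal markers were 644 to 2376 in HSD17B1TG, the highest being TG1, and 2131 to 2755 in WT. At an unadjusted p under 0.05 in edgeR, 14.7% of all genes were higher and 11.4% lower, the shares to set beside the counts that follow. Of 11 epithelial markers 0 passed in edgeR, but 8 were higher at an unadjusted p under 0.05. The epithelial markers summed to 760 to 3563 in HSD17B1TG and 531 to 1825 in WT. Of 10 endothelial markers 0 passed in edgeR, 4 being lower at an unadjusted p under 0.05 and their sums 26.6 to 100.6 and 61.6 to 145. Of 10 smooth muscle markers 0 passed in edgeR and 0 had an unadjusted p under 0.05, with the highest sums in TG1 (7695) and WT4 (6006). Of 6 pericyte markers 0 passed in edgeR, with 1 lower at an unadjusted p under 0.05 and sums of 28.5 to 75.3 and 59.0 to 121. Of 11 macrophage markers 2 rose (*Cd68* and *Itgam*) and 1 fell (*Mertk*) past the thresholds, where 2.16% of all genes were called higher and 2.08% lower. The macrophage markers summed to 293 to 484 in HSD17B1TG and 166 to 289 in WT. Of 6 adipocyte markers only 1 was tested, and of 5 oviduct markers 4 were, with 0 passing in edgeR in either list and 1 marker of each higher at an unadjusted p under 0.05.

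Set against the summed stromal markers of the same mouse, a ratio chosen after the data were seen, *Igfbp4* was lower in HSD17B1TG by a log2 difference of -0.89 (two-sided exact permutation p = 0.0238) and *Igfbp7* by -0.62 (two-sided exact permutation p = 0.0397). The differences for *Igf1* and *Igfbp5* were -0.77 (two-sided exact permutation p = 0.159) and -0.62 (two-sided exact permutation p = 0.310). Both receptors were higher relative to these markers, *Igf1r* by 1.30 and *Igf2r* by 1.41 (two-sided exact permutation p = 0.00794 each), without overlap of the groups. The sign of both depended on the marker list. Against the epithelial markers the differences were -0.90 for *Igf1r* and -0.80 for *Igf2r*, against smooth muscle -0.56 and -0.46, and against macrophages -0.39 and -0.28, with two-sided exact permutation p between 0.238 and 0.556, while against endothelium they were 1.17 and 1.27 and against pericytes 1.19 and 1.30 (two-sided exact permutation p = 0.00794 each). These p were not adjusted for the genes and lists compared. The stromal sum gives most weight to abundant markers, among them *Dcn* and *Lum*, which did not pass. The less abundant *Pdgfra* (log2 fold change -1.99), *Hand2* (-1.998), *Thy1* (-2.08), *Hoxa10* (-2.14) and *Hoxa11* (-2.36) fell numerically further than *Igfbp4* (-1.91) and *Igfbp7* (-1.61). The other stromal markers ranged from -1.46 (*Col3a1*) to 0.51 (*Lum*). Other weightings of the stromal markers were not tested. How much of each difference follows the number of stromal cells was not tested either.

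**Figure D5:**
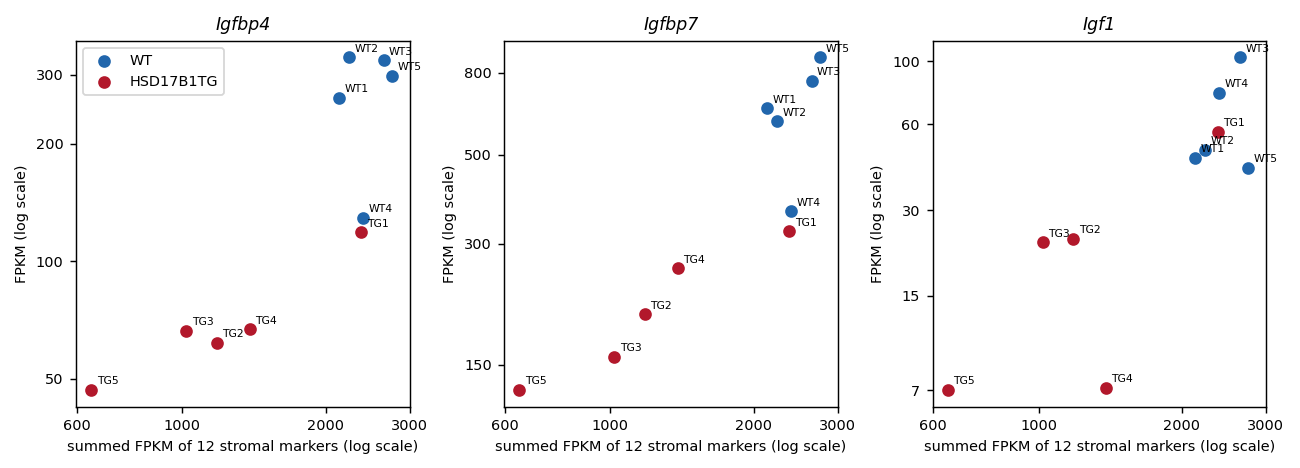
FPKM of Igfbp4, Igfbp7 and Igf1 (vertical axes, log scale) against the summed FPKM of 12 stromal markers (horizontal axis, log scale) in 10 mice, WT blue and HSD17B1TG red. TG1, with a marker sum of 2376, lies beside WT4 in the Igfbp4 and Igfbp7 panels and among the WT mice in the Igf1 panel.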

How the data were processed

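Libraries of uterine RNA from 10 mice were read in pairs on a NovaSeq instrument. For mapping, the authors used HISAT2 2.0.5 with GRCm38 and Ensembl 94. The authors deposited 1 table that gives, per gene and mouse, the raw count and the FPKM, in which count is divided by gene length and a size factor per mouse. Which program counted the reads, and with which strand setting, is not given in the sources used here, so reads where genes overlap may have been assigned to either. The table also holds the authors' own fold changes and p-values, which were not used, and neither were 3 further tables that hold such comparisons.

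Mice were grouped by the genotype in the labels. The quasi-likelihood test of edgeR 4.0.16 in R 4.3.3 was run on the counts after filterByExpr and TMM, with Benjamini-Hochberg adjustment over 16993 genes. p-values measure the spread between mice. Single genes were also tested on log2(FPKM + 1) with a two-sided exact permutation test over 252 assignments (scipy 1.17.1). The ratio to stromal markers was log2((FPKM + 0.1) / marker sum). The alternatives were DESeq2 1.42.0, limma 3.58.1 with voom and quality weights or on log2(FPKM + 1) or log2(FPKM + 0.1), other normalizations, no filter on low counts, and each mouse left out. The scripts were tested on simulated data. No batch is labelled, and mitochondrial genes took 1.94% to 7.57% of counts in HSD17B1TG and 2.58% to 3.37% in WT.

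The members, lists and alternatives were chosen with earlier results of these data known. Genes named are the members, the genes of the other IGF axis list that passed, the 3 genes with the smallest p of the relay and proliferation lists, the steroid receptors, the 3 genes most like *Igf1*, *Igfbp4* and *Igfbp7*, and genes overlapping a member. A gene that this rule names is not reported here. The stromal ratio, *Pappa*, *Igfbp1* and the markers named were chosen after their values were seen. Coordinates of the members are the same in the table and in GENCODE M21. RefSeq promoter windows were matched by symbol.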

Additional observations from a re-analysis of the deposited data

Results flagged for a closer look

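In 4 of the 20 groups of 5 mice examined (each gene of the family in each genotype), 1 mouse stood apart from the rest of its group by Dixon's ratio of the gap to the range (above 0.71). For independent, normally distributed values chance gives about 1 in 20 groups, but FPKM are skewed and the genes share mice, so the rate here was not measured. *Igf1r* was 6.70 FPKM in WT5, and the next WT mouse had 3.67. *Igfbp2* was 9.55 FPKM in TG2, with 0.900 in the next HSD17B1TG mouse. *Igfbp3* was 114.9 FPKM in TG4, with 32.2 in the next. *Igfbp4* was 118.6 FPKM in TG1, with 67.0 in the next, which puts TG1 nearer to WT4 (129) than to the other HSD17B1TG mice. A different mouse was concerned in each case. TG4 also had the highest adipocyte marker sum, 44.5 FPKM against 0.244 to 11.4 in the other mice, and whether this bears on its *Igfbp3* was not tested.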

How the results depend on the processing

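*Igfbp4* and *Igfbp7* stayed lower and passed in all 7 alternatives of tool, unit, normalization and filter, with log2 fold changes of -2.12 to -1.88 and -1.73 to -1.61. With 1 mouse left out, their log2 fold changes were -2.16 to -1.79 and -1.80 to -1.48, and 0 to 3 of the family were called. *Igf1* (-2.06 to -1.21 with 1 mouse left out) passed without TG1 and with voom (-1.67), and *Igfbp5* passed with DESeq2 (-1.61). *Igfbp2* turned negative with limma on log2(FPKM + 1) (-0.25) and log2(FPKM + 0.1) (-0.81), and with 1 mouse left out it ranged from -1.93 to 0.87, being negative without TG2 (-1.93), WT1 (-0.07) and WT3 (-0.05). *Igfbp3* ranged from -0.15 to 1.22 and was negative only without TG4. Relative to the stromal markers, an alternative chosen after seeing the data, *Igf1r* (1.30) and *Igf2r* (1.41) had an unadjusted exact permutation p under 0.05, as did *Igfbp4* and *Igfbp7*, and *Igfbp6* turned positive (0.22). Called genes of the whole table numbered 367 higher and 354 lower, against 906 and 666 with DESeq2, 1083 and 665 with voom, 228 lower with limma on log2(FPKM + 1), and 38 to 888 higher and 27 to 651 lower with 1 mouse left out. Of the other IGF axis genes, 1 to 5 were called with 1 mouse left out. The cause was not tested for any of these shifts. No paired analysis was possible because the titles share fewer than 2 numbers across genotypes and do not say what these numbers mark. The number of mice, 5 per group, and the few counts of *Igf2* limit what could be seen.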
